A study of Arabidopsis thaliana with 6 samples.

Results

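The Dof genes encode a plant-specific family of transcription factors, and the family was described here in callus against leaf of Arabidopsis thaliana. The members were fixed by locus, as 36 Dof loci of the genome, and not by their expression, though earlier results of these data were known. A locus was measured where the platform's gene table assigned a probe set of the array to that gene alone. This held for 12 of the 36 loci, among 13356 genes tested in all, and each of the 12 had 1 such probe set. The callus group had 3 arrays from calli that formed on leaf blades of 20-day-old Col-0 plants during 20 days on callus-inducing medium (CIM), which contains an auxin, a cytokinin and glucose. The leaf group had 3 arrays from leaves of 20-day-old Col-0 seedlings. Both groups were wild type, and the methods call the arrays independent experiments. Hormones, medium, excision and time in culture differed together between the groups and cannot be told apart. The labels give 16 h of light and 8 h of darkness for both tissues, the methods give darkness for cultured explants, and the time of day of harvest is not given in the sources used here.

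A Dof protein carries one zinc finger, the Dof domain, with which it binds short DNA elements built around an AAAG core. The family acts in vascular development, in the timing of flowering, in light responses and in seed germination. One branch, the CYCLING DOF FACTORs (CDFs), represses the flowering genes CONSTANS and FT and is removed late in the day by the proteins FKF1 and GIGANTEA (GI). Another branch, which includes the PEAR proteins, promotes cell division in the young vascular tissue of the root.

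The measured genes were DOF2.1, DOF1.8, DOF4.6, PEAR2 and DOF5.8, which act in or are expressed in vascular tissue, CDF4, CDF5 and CDF6 of the cycling branch, COG1 of light signalling, and DOF2.2, DOF1.2 and DOF1.6. The other 24 loci were not analysed here. These were OBP2, PEAR1, DOF6, TMO6 and HCA2, grouped here with the vascular genes, CDF1, CDF2 and CDF3, the light signalling gene OBP3, the germination genes DAG1 and DAG2, OBP1 and OBP4, the guard cell gene SCAP1, DOF4.7, the clustered genes DOF4.2, DOF4.3, DOF4.4 and DOF4.5, and DOF1.4, ADOF1, ADOF2, DOF3.5 and ITD1. The description therefore covers part of the family, and of the cycling branch it lacks the members best known for flowering.

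Values are log2 expression values, and each log2 fold change gives callus relative to leaf. The array medians lay between 5.79 and 5.96 and the first quartiles between 4.15 and 4.23. Within a tissue the arrays had Pearson correlations across genes of 0.995 to 0.998, against 0.765 to 0.775 between callus and leaf arrays. Of 10 mesophyll markers 7 were measured, and all 7 were lower in callus, by most for PRK, HPR1, PSAE-1 and SBPASE. Of 13 root markers 6 were measured, of which BBM, LBD16, UPB1 and AGL21 were higher in callus and 2 were not called. Of all genes tested 16.4% were higher and 13.2% lower. PRK lay below the first quartile on all 3 callus arrays and SBPASE on 2. AGL21 lay below it on all 3 leaf arrays and BBM on 1, so the sizes of these changes are uncertain. The summed signal of the mesophyll markers was 8.12 to 8.25 on the log2 scale in callus and 15.8 to 15.9 in leaf. In bulk tissue, fewer cells of a type and less RNA per cell cannot be told apart. RNA integrity can be read from actin control probes, by how far the 3' probes exceed the 5' probes on the log2 scale. This excess was 3.66 to 3.81 in callus and 2.84 to 3.26 in leaf for one set of control probes. For a further set it was 1.48 to 1.59 in callus and 1.57 to 2.11 in leaf, where the ranges overlapped. The GAPDH and ubiquitin controls also had a pair of sets each, and their ranges were apart in one set each, at 0.46 to 0.70 in callus and 0.91 to 1.03 in leaf for GAPDH, and at 1.16 to 1.24 in callus and 0.84 to 1.07 in leaf for ubiquitin. The controls thus gave no common direction, and the part of RNA integrity in the results below was not tested.

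The comparison asked which Dof genes differ in expression between callus and leaf. Of the 12 measured genes, DOF2.1 and CDF4 were higher in callus, CDF5 and DOF2.2 were lower, and 8 were not called. A gene was called where limma gave an adjusted p under 0.05 over all genes and the change was more than 2-fold. The Dof shares, 16.7% higher and 16.7% lower, stood beside 16.4% higher and 13.2% lower among all genes tested. In either direction 33.3% of the measured Dof genes and 29.6% of all genes were called, so these 12 genes were called about as often as genes in general. The median log2 fold change was -0.12 over the Dof genes and 0.01 over all genes. For 9 of the 12 genes the callus and leaf arrays did not overlap, as they did not for 66.0% of all genes.

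**Figure D1:**
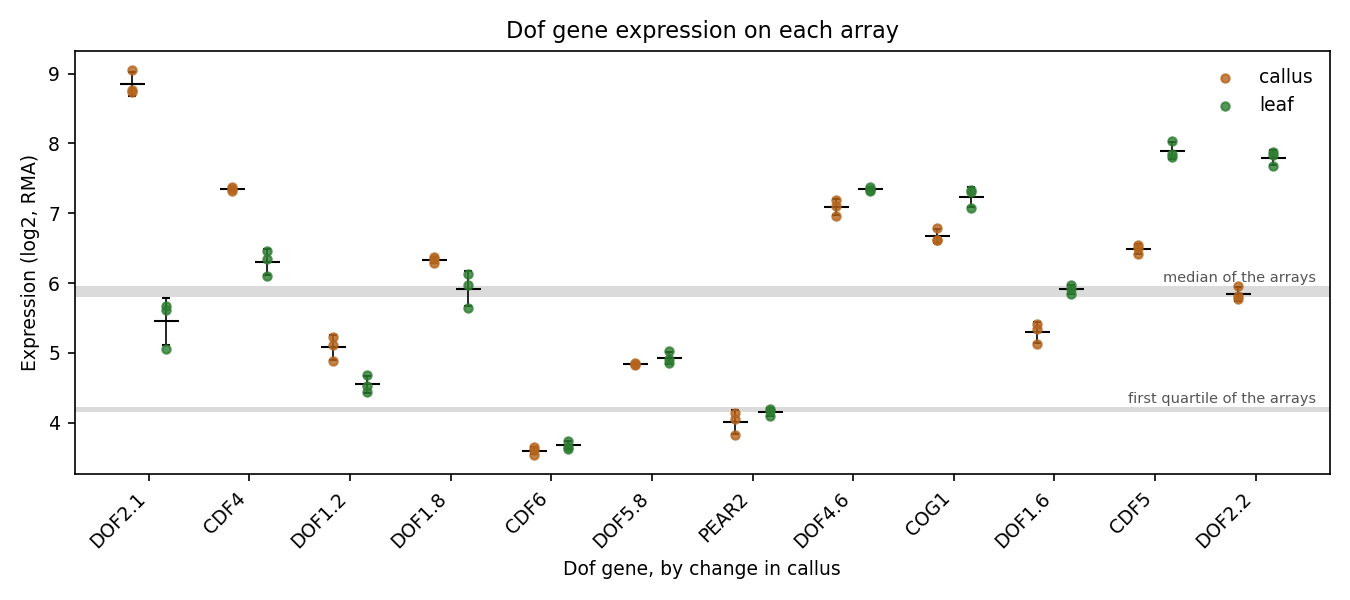
Expression of the 12 measured Dof genes on each array (y axis, log2 RMA value), with callus points left of leaf points, a bar at the mean and whiskers of 1 SD (n = 3), and grey bands for the range of the array medians and first quartiles. DOF2.1 reached 8.74 to 9.05 in callus against 5.06 to 5.67 in leaf, and CDF6 lay below the first quartile on all 6 arrays.

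The vascular genes were led by DOF2.1, AT2G28510 on chromosome 2, which acts downstream of the TMO5 and LHW proteins in divisions of young vascular cells of the root. DOF2.1 stood at 9.05, 8.74 and 8.77 in the callus arrays and at 5.67, 5.62 and 5.06 in the leaf arrays. The callus arrays lay far above the leaf arrays, with leaf replicate 3 the lowest value of all. DOF2.1 averaged 8.86 ± 0.172 in callus and 5.45 ± 0.337 in leaf (SD, n = 3). This is a rise of 10.6-fold, with a log2 fold change of 3.41 ± 0.142 (SE, limma adjusted p = 4.06e-12). By size of change DOF2.1 ranked 636 of 13356 genes, and it was the sole measured Dof gene past 4-fold (1 of 12, against 13.4% of all genes). In leaf all 3 values lay below the array medians and above the first quartiles, and in callus all 3 lay above the medians.

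The 4 further vascular genes were not called. DOF1.8, AT1G64620, also known as VDOF2 and involved in vascular cell differentiation, stood at 6.29, 6.34 and 6.37 in callus and at 5.97, 5.65 and 6.14 in leaf. The callus arrays were closely spaced and just above the leaf arrays, at a log2 fold change of 0.42 ± 0.126 (SE, limma adjusted p = 0.00936). Its partner DOF4.6, AT4G24060, known as VDOF1, stood at 7.11, 7.18 and 6.96 in callus and at 7.32, 7.38 and 7.34 in leaf. Here the callus arrays lay just below the leaf arrays, with a log2 fold change of -0.26 ± 0.0894 (SE, limma adjusted p = 0.0199). The 95% confidence intervals of these changes, 0.15 to 0.68 for DOF1.8 and -0.45 to -0.07 for DOF4.6, lay on opposite sides of 0, but the sign of DOF1.8 turned with TIP41 as the reference (-0.17) and that of DOF4.6 with the poly-A controls (0.48).

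PEAR2, AT5G02460, encodes a mobile protein that promotes divisions around the root phloem. It stood at 3.82, 4.14 and 4.05 in callus and at 4.09, 4.2 and 4.16 in leaf. The groups overlapped, and all 3 callus arrays and 1 leaf array lay below the first quartile of their array. The log2 fold change was -0.15 with a 95% confidence interval of -0.36 to 0.06 (limma adjusted p = 0.214). DOF5.8, AT5G66940, is expressed in forming veins and lay between 4.82 and 4.86 in callus and between 4.85 and 5.02 in leaf. These ranges also overlapped, and the log2 fold change was -0.09, with an interval of -0.31 to 0.14 (limma adjusted p = 0.524). RMA values carry no detection call, so at such a low signal a change of PEAR2 may not have been detectable.

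Few genes of vascular signalling were measured beside these. Both measured genes of that list (2 of 19) were higher in callus, against 16.4% of all genes tested. LHW, the partner of TMO5 upstream of DOF2.1 in the root, stood at 8.72, 8.70 and 8.58 in callus and at 6.43, 6.44 and 6.50 in leaf, with a log2 fold change of 2.21 ± 0.0810 (SE, limma adjusted p = 8.78e-13). PHV, of the HD-ZIP III family that counteracts the PEAR proteins in the root, rose by 1.07 on the log2 scale. That call was lost after centring on TIP41 (0.49) or on the array medians (0.98). TMO5 itself was not analysed here. Of 14 phloem markers 2 were measured and they went opposite ways, with SWEET11, a sucrose transporter of the leaf phloem, at a log2 fold change of -7.75 and OPS, a protein of early phloem cells, at 1.87. The summed signal of these 2 markers was 6.91 to 7.43 in callus and 12.5 in each leaf array on the log2 scale, which in leaf is almost wholly SWEET11, and the part of phloem content in the Dof values was not tested. Of 11 xylem markers 0 were measured.

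**Figure D2:**
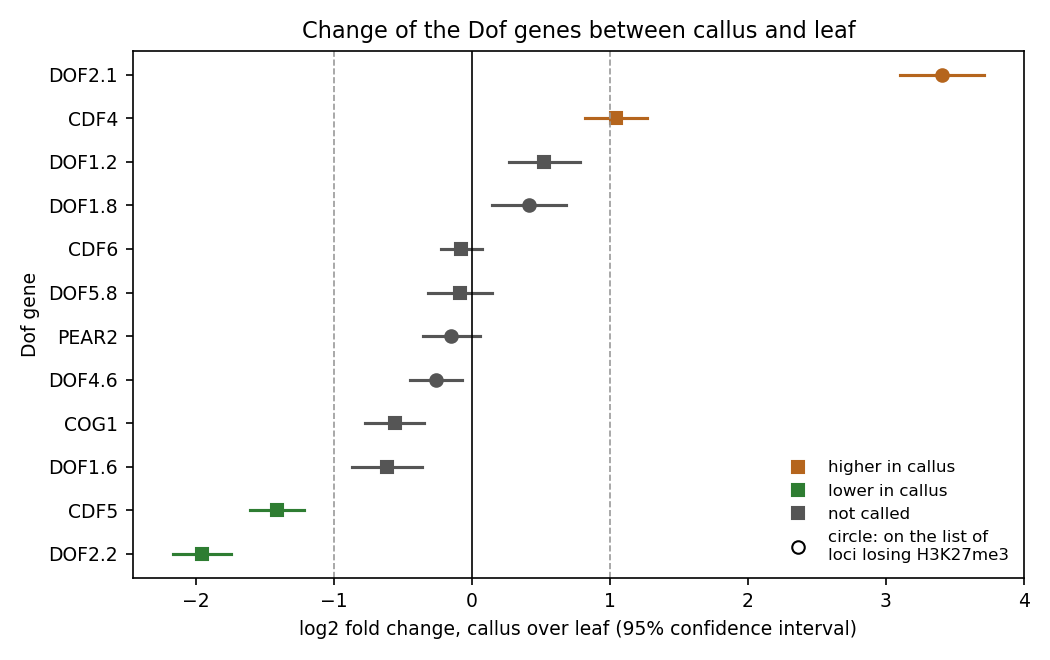
Log2 fold change of each measured Dof gene, callus over leaf, with its 95% confidence interval from limma (x axis), dashed lines at 2-fold, colours for the call and circles for loci on the study's list of decreased H3K27me3. DOF2.1 stands apart at 3.41, CDF4 and CDF5 lie on opposite sides of 0, and the interval of CDF4 reaches below the 2-fold line.

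The cycling branch went both ways. CDF4, AT2G34140, which also acts in the stem cell niche of the root tip, stood at 7.37, 7.34 and 7.31 in callus and at 6.10, 6.34 and 6.46 in leaf. All callus arrays were above all leaf arrays, with the wider spread in leaf. CDF4 rose 2.06-fold, at a log2 fold change of 1.04 ± 0.105 (SE, limma adjusted p = 2.47e-07, 95% confidence interval 0.82 to 1.27). This is close to the 2-fold threshold, and the call was lost without leaf replicate 1 (0.94), after a further quantile normalization (0.98), and after centring on the array medians (0.95) or on TIP41 (0.46), while the direction stayed.

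CDF5, AT1G69570, a repressor of flowering, had the opposite direction. It stood at 6.41, 6.54 and 6.50 in callus and at 8.04, 7.81 and 7.85 in leaf, with a clear gap between the tissues. CDF5 averaged 6.49 ± 0.0658 in callus and 7.90 ± 0.120 in leaf (SD, n = 3) and was 2.66-fold lower in callus, at a log2 fold change of -1.41 ± 0.0922 (SE, limma adjusted p = 1.19e-09). Centring on the poly-A controls ended its call (-0.67). The CDF5 locus also carries an antisense RNA, and which strand the probe set reads is not given in the sources used here. CDF6, AT1G26790, lay between 3.54 and 3.64 in callus and between 3.63 and 3.74 in leaf. These ranges overlapped, and every value was below the first quartile of its array, at a log2 fold change of -0.08 (limma adjusted p = 0.374). As for PEAR2, a change may not have been detectable at this signal.

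The clock and photoperiod genes around the CDF proteins were nearly all outside the named probe sets, with 1 of 19 measured. GI, which helps to remove CDF proteins, stood at 8.77, 8.75 and 8.88 in callus and at 6.42, 6.68 and 6.68 in leaf. The callus arrays were all above the leaf arrays, and GI rose by 2.21 ± 0.0903 on the log2 scale (SE, limma adjusted p = 3.26e-12). GI and the CDF genes are known to vary over the day, and since the hour of harvest and the light of the calli are not settled, the part of time of day in these values was not tested.

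COG1, AT1G29160, a negative regulator of phytochrome responses, was the measured gene of light signalling. It stood at 6.79, 6.62 and 6.61 in callus and at 7.07, 7.30 and 7.33 in leaf. The callus arrays were all below the leaf arrays, but the difference was less than 2-fold, with a log2 fold change of -0.56 ± 0.101 (SE, limma adjusted p = 0.000142). COG1 was called lower once the arrays were centred on TIP41 (-1.15), and its sign turned on the poly-A controls (0.18). Of 14 further light signalling genes 1 was measured, HYH, a bZIP factor that promotes light responses, at 3.75, 4.03 and 4.01 in callus and 6.04, 6.11 and 6.26 in leaf. HYH fell by 2.21 on the log2 scale (limma adjusted p = 1.25e-10), but all 3 callus values lay below the first quartile of their arrays, so the dim signal limits how well the size is known.

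Among the remaining genes DOF2.2, AT2G28810, had the lowest log2 fold change of the 12 measured Dof genes. It stood at 5.96, 5.81 and 5.77 in callus and at 7.68, 7.88 and 7.83 in leaf. The callus values lay around the array medians and the leaf values well above them. DOF2.2 averaged 5.84 ± 0.102 in callus and 7.80 ± 0.104 in leaf (SD, n = 3) and was 3.87-fold lower in callus, at a log2 fold change of -1.95 ± 0.0989 (SE, limma adjusted p = 4.87e-11). This gene kept its call under each scaling, between -2.54 with TIP41 as the reference and -1.21 with the poly-A controls.

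DOF1.2 and DOF1.6 differed by less than 2-fold, and in opposite directions on the deposited scale. DOF1.2, AT1G21340, stood at 5.11, 4.89 and 5.23 in callus and at 4.53, 4.68 and 4.44 in leaf, with a log2 fold change of 0.53 ± 0.121 (SE, limma adjusted p = 0.00126). DOF1.6, AT1G47655, stood at 5.35, 5.12 and 5.41 in callus and at 5.84, 5.91 and 5.98 in leaf, with a log2 fold change of -0.62 ± 0.118 (SE, limma adjusted p = 0.000251). Neither gene's groups overlapped, but the sign of DOF1.2 turned with TIP41 as the reference (-0.06) and that of DOF1.6 with the poly-A controls (0.12). With no fold threshold, limma called 9 of the 12 Dof genes at an adjusted p under 0.05, 4 higher and 5 lower, against 61.2% of all genes.

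**Figure D3:**
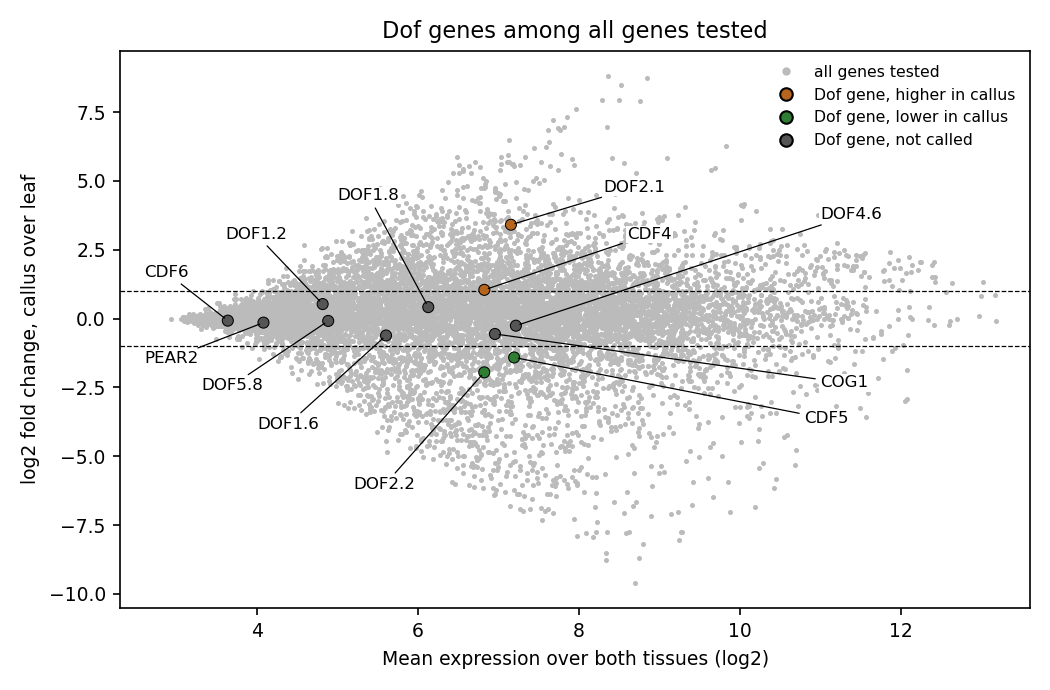
Log2 fold change, callus over leaf (y axis), against mean expression over both tissues (x axis, log2) for all 13356 genes (grey) and the 12 Dof genes (outlined), with dashed lines at 2-fold. The Dof genes lie inside the spread of all genes at their expression level, with DOF2.1 at 3.41 and DOF2.2 at -1.95 as the ends of the measured Dof genes.

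The study listed loci whose H3K27me3, a histone mark of silenced genes, was lower or higher in callus by separate ChIP-chip arrays. Of the 36 Dof loci 7 were on the list of decreased H3K27me3, and 0 were on the list of increased H3K27me3. Over all 13356 genes tested, 1.25% were on the first list and 0.51% on the second, and 4 of the 12 measured Dof genes were on the first. The measured ones were DOF2.1, DOF1.8, DOF4.6 and PEAR2, and all 4 belong to the vascular genes described above. Of these DOF2.1 rose and 3 were not called. Over all 167 tested genes of that list 41.9% were higher and 5.4% lower in callus, against 16.4% and 13.2% of all genes tested. The 4 Dof genes had log2 fold changes from -0.26 to 3.41 with a median of 0.13, beside a median of 0.55 over the 167 genes. The 8 measured Dof genes outside the list had 1 call higher and 2 lower, and a median of -0.32. The remaining listed loci, TMO6, HCA2 and DAG1, were not analysed here.

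Centring the arrays on a reference moved all Dof values together. Quantile normalization fixes the overall distribution, and centring on other references shifted the median of all genes by -0.59 for TIP41, a reference gene, by 0.26 for the hybridization controls and by 0.74 for the poly-A controls. The signs of DOF2.1, CDF4, CDF5 and DOF2.2 stayed under each of these. The other 8 genes changed sign under at least 1 of them, DOF1.2 and DOF1.8 with TIP41, 6 genes with the poly-A controls and 4 of these 6 with the hybridization controls, so no direction is given for them beyond the deposited scale. Signs were counted whatever their error, and DOF4.6 stood at only 0.0025 ± 0.0984 (SE) on the hybridization controls. The counts were 1 higher and 4 lower on TIP41 and 4 higher and 1 lower on the poly-A controls. Of all called genes, 55.4% were higher in callus on the deposited scale, against 31.0% with TIP41, 64.9% with the hybridization controls and 80.1% with the poly-A controls. The order of the 12 genes is the same under each centring, since a centring moves all genes by the same amount.

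**Figure D4:**
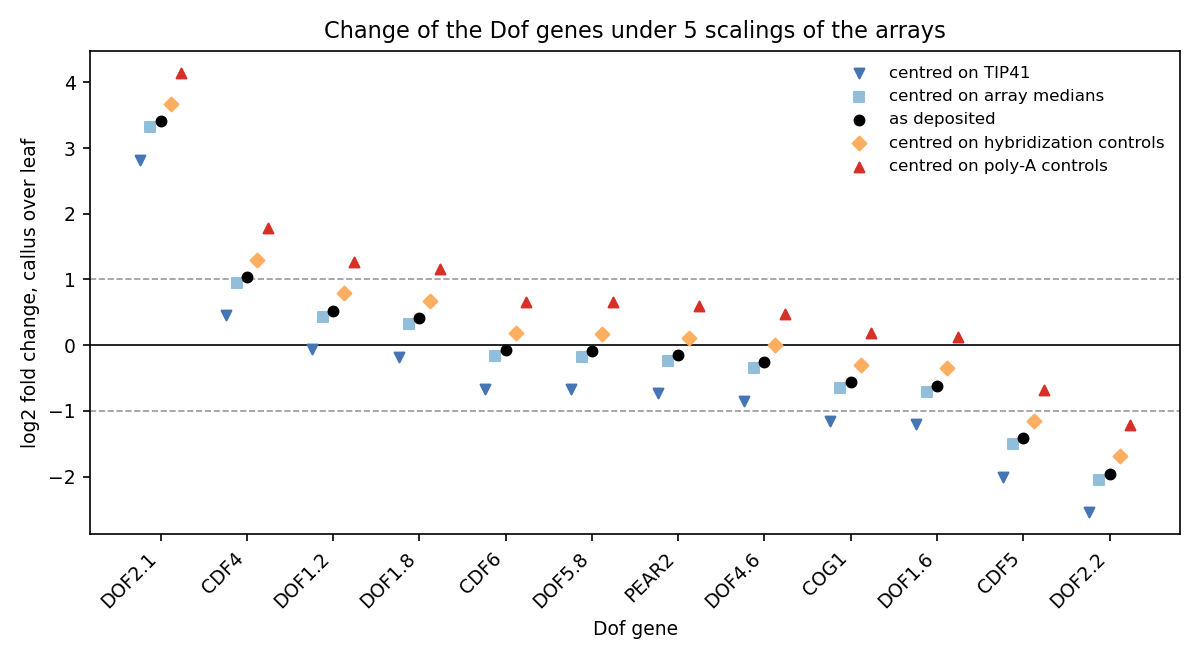
Log2 fold change of each Dof gene, callus over leaf (y axis), under 5 scalings of the arrays, with dashed lines at 2-fold. DOF2.1 ranges from 2.82 to 4.15 and DOF2.2 from -2.54 to -1.21, while 8 of the 12 genes have points on both sides of 0.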

How the data were processed

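RNA of 3 callus and 3 leaf samples was hybridised to Affymetrix GeneChip arrays after oligo(dT) priming and biotin labelling. The authors deposited log2 expression values, made per the labels with RMA (background correction, quantile normalization, summary of probe sets) and Partek; neither source states a version. The table held 22810 probe sets, 64 of them controls, and 0 columns of other samples. Probe sets were named by the platform's gene table: 13513 had 1 gene, 503 had several and 8730 were not listed. Where a gene had several, as 146 genes did, the probe set brightest on average over the 6 arrays was used, which left 13356 genes. Chromosomes came from RefSeq (TAIR10.1). The Dof genes and the genes of the context lists carry the symbols set with those lists. Other genes took theirs from RefSeq or, where it had no entry, from the platform's gene table.

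The tissues were compared with the R package limma 3.58.1 (R 4.3.3), with lmFit, then eBayes under an intensity trend. P-values were adjusted by the Benjamini-Hochberg method across all genes. Genes were called at an adjusted p under 0.05 and more than 2-fold, the study's fold threshold. The script was tested on simulated data. Every measured Dof gene was named, and up to 4 called genes per direction of each context list, those with the largest changes, while SPCH and MUTE were named after their values were seen. Membership of the study's H3K27me3 lists was read by locus from its supplementary list. Members and lists were chosen with earlier results of these data known. Precision is limited by 3 arrays per group.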

Additional observations from a re-analysis of the deposited data

How the results depend on the processing

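Over 19 alternatives DOF2.1, CDF4, CDF5 and DOF2.2 kept their direction. As deposited, 2 Dof genes were higher and 2 lower, with 2193 and 1765 of all genes. Without a fold threshold the Dof counts were 4 and 5 (all genes 4598 and 3572), and above 4-fold they were 1 and 0 by limma (all genes 839 and 956), as DOF2.2, at -1.95, is short of 4-fold at any p. At 2-fold with an unadjusted p they were 2 and 2 (all genes 2193 and 1765). After centring on TIP41 they were 1 and 4 (1257 and 2794), and on the poly-A controls 4 and 1 (4456 and 1108). With quantile normalization again or centring on array medians 1 Dof gene was higher. The Dof median of -0.12 became -0.21 on array medians, 0.15 on hybridization controls, 0.62 on poly-A controls, -0.70 on TIP41 and -0.26 where genes below the median level were left out, which kept 7 Dof genes. Leaving out each array in turn gave 1 to 2 Dof genes higher and 2 lower, a Dof median of -0.15 to -0.07, and 2158 to 2232 genes higher and 1747 to 1790 lower over all genes. The single loss there was CDF4 without leaf replicate 1. Replicate numbers are shared between the tissues, but same-numbered arrays did not deviate together (correlations of -0.11, 0.07 and -0.04). With the replicate block 2 Dof genes were higher and 2 lower, and 2193 and 1765 of all genes. RMA gives no background level, which limits what dim genes such as CDF6 and PEAR2 can show.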

Other observations

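Processes tied to Dof genes that were not analysed here were also seen through few genes. OBP1 is known to act on cell cycle genes, and all 3 measured genes of the cell cycle list (3 of 12) were higher in callus, against 16.4% of all genes tested. OBP1 itself was not analysed here, and a tie between it and these genes was not tested. MCM7, a DNA replication licensing factor, had the largest log2 fold change of the 3, 2.70 ± 0.119 (SE, limma adjusted p = 9.08e-12), beside AUR2 at 2.05 and AUR1 at 1.96, kinases of mitosis. OBP2 is known to act on glucosinolate synthesis, where the 1 measured gene of 12, UGT74B1, had a log2 fold change of 1.12 ± 0.0799 (SE, limma adjusted p = 3.87e-09) and lost its call after centring on TIP41 (0.53). SCAP1 acts in guard cells, for which 5 of 14 markers were measured. FAMA and GC1 (2 of 5, against 13.2% of all genes tested) were lower in callus, by a log2 fold change of -2.36 and -3.88, and the other 3 were not called. FAMA lay below the first quartile on all 3 callus arrays, and SPCH and MUTE among those not called lay below it on all 6 arrays, so at this signal a change may not have been detectable and the size for FAMA is uncertain. Of 12 genes of germination and gibberellin, the field of DAG1 and DAG2, 0 were measured.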
